A study of Mus musculus with 9 samples.

Results

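Gapdh and Pgk1 were read through 4 control probes that the array maker placed on every array, Mouse-GAPDH_3, Mouse-GAPDH_5, Mouse-PGK1_3 and Mouse-PGK1_5. They were taken by name among the 91256 probe names of the array, of which 91188 were ordinary probes. The suffix was read as the end of the transcript that a probe targets, 3′ or 5′, from the name alone. Each probe was printed as 10 spots per array, and 348 of the 360 spots were used after 12 spots marked as outliers were left out. The files list no sequence for these 4 probes. RNA came from the aorta of male C57BL/6J mice, and the arrays fell into 3 groups of 3. The ND group ate a normal diet, the HF group a high fat diet, and the HE group a high fat diet with exercise in bouts labelled 60 min, each for 12 weeks. All mice, the ND mice included, were fasted overnight and killed 24 h after the exercise period ended. The study set out 24 mice, 8 in each group, and whether an array holds RNA of 1 mouse or of a pool is not given in the labels. The p-values below therefore measure the spread between arrays, which may be technical. The sample labels name the aorta, while the design text speaks of its endothelium. The tissue was not checked against cell type markers, because gene names of the ordinary probes were not used here.

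Gapdh encodes glyceraldehyde-3-phosphate dehydrogenase, the enzyme that oxidises glyceraldehyde 3-phosphate in the middle of glycolysis and makes NADH. Pgk1 encodes phosphoglycerate kinase, which takes the product of that step and transfers its phosphate to ADP, the first step of the pathway that yields ATP. Both genes are widely expressed, both are used as reference genes, and both belong to the glycolytic genes known to respond to hypoxia through hypoxia-inducible factor. In bulk tissue, fewer cells of a type and less RNA per cell cannot be told apart.

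The promoters of both genes are shown as background, and a link between them and the levels on these arrays was not tested. Gapdh lies on chromosome 6 (GRCm38.p6, 125161852 to 125166467, minus strand) and Pgk1 on the X chromosome (106187100 to 106203699, plus strand). Each line gives the 250 bases before the start in the RefSeq table, on the strand of the gene, at chr6:125165774-125166023 and chrX:106186850-106187099. The Gapdh window lies inside the annotated span of the gene, which reaches further upstream. Capitals mark matches, on either strand, to the core letters of the hypoxia response element (ACGTG, or the variant GCGTG), to the GC box (GGGCGG) and to the CCAAT box; the TATA box letters (TATAA) were searched too.
Gapdh: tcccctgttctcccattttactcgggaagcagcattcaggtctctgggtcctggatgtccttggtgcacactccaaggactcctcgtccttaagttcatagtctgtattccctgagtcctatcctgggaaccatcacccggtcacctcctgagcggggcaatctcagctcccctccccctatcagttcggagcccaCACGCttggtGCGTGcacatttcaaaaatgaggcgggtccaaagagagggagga
Pgk1: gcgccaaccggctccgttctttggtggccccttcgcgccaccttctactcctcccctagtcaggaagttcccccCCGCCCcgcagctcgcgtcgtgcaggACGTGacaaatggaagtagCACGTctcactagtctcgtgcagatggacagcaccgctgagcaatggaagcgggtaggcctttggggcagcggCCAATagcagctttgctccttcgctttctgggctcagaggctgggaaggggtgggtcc
The Gapdh window held 2 matches to GCGTG, the first base at -54 on the opposite strand and at -44 on the strand of the gene, and 0 matches to the other motifs. The Pgk1 window held 2 matches to ACGTG, at -150 and, on the opposite strand, at -131, with 1 GGGCGG at -176 on the opposite strand and 1 CCAAT at -58. Each window thus held 2 matches to the hypoxia response element core, in different forms. Among 32851 RefSeq promoters of the same length, 28.2% held the variant core GCGTG and 16.6% the core ACGTG. The share that held either core, or 2 matches, was not counted, so how common such a window is remains unknown. The GC box was in 32.7%, the CCAAT box in 33.8% and the TATA box letters in 22.8%. The windows were 55.6% and 62.8% G or C, against a median of 52.4%. A match is a match of letters only.

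Slides did not match the groups. The ND arrays sat together on slide 1, with 1 HF array (replicate 1) beside them, and the remaining HF arrays were on slide 2. HE replicates 1 and 2 were also on slide 2, while HE replicate 3 was alone on slide 3, so ND and HE never shared a slide. From 36.6% (HE replicate 2) to 48.9% (ND replicate 1) of the ordinary probes were well above background. The 75th percentile of their log2 signal ran from 6.73 in HE replicate 2 to 7.31 in HF replicate 1. Levels are given as the log2 processed signal of a probe minus that percentile of its array, so a level of 1 is double the percentile. No spot was saturated.

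All 4 probes were well above background on all 9 arrays. Probes differ in how well they bind, so a rank orders signals and not transcripts. Mouse-GAPDH_5 had a processed signal between 11409 (HE replicate 2) and 27365 (ND replicate 1), and its percentile among the ordinary probes was 99.29 to 99.63, with 334 to 648 of them at or above it. Mouse-GAPDH_3 lay at the 97.93 to 98.64 percentile. Mouse-PGK1_3 lay lower and ranged more widely, from 92.36 to 96.76. Mouse-PGK1_5 was the dimmest, at 75.97 to 87.86, with a processed signal from 135 in ND replicate 2 to 503 in ND replicate 1.

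For Mouse-GAPDH_3 the levels were 5.54, 4.90 and 5.05 in ND replicates 1 to 3, 5.14, 5.45 and 4.98 in HF, and 5.24, 5.06 and 4.95 in HE. The 3 groups overlapped, and the ND arrays alone spanned the whole range of the probe. For Mouse-GAPDH_5 the levels were 7.44, 6.62 and 6.88 in ND, 7.07, 7.40 and 7.10 in HF, and 6.96, 6.74 and 6.95 in HE. Here every HE array lay below every HF array, while the ND arrays lay on both sides of each. The group means were 6.98 ± 0.42, 7.19 ± 0.18 and 6.88 ± 0.12 (SD, n = 3) in the order ND, HF and HE.

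For Mouse-PGK1_3 the levels were 4.14, 2.57 and 3.19 in ND, 3.31, 3.80 and 3.17 in HF, and 3.41, 3.03 and 3.52 in HE. ND replicate 1 was the highest and ND replicate 2 the lowest of all 9 arrays, with every HF and HE array between them. For Mouse-PGK1_5 the levels were 1.67, 0.10 and 0.93 in ND, 1.14, 1.51 and 0.73 in HF, and 1.31, 1.07 and 1.33 in HE. The same 2 arrays marked its top and bottom. Its group means were 0.90 ± 0.79, 1.13 ± 0.39 and 1.24 ± 0.14 (SD, n = 3) in the order ND, HF and HE, with SDs that covered the distances between them.

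The comparison of HF with ND asked for the change with a high fat diet, that of HE with HF for the change when exercise was added, and that of HE with ND for both together. In limma's model over 43943 probes and all 9 arrays, 0 probes (0%) had an adjusted p under 0.05 in any of the 3 comparisons, the 4 control probes among them. At an unadjusted p under 0.05, limma called 4307 probes (9.8%) in the first comparison, 5461 (12.4%) in the second and 6464 (14.7%) in the third, and none of the 4 control probes. limma was the test across all probes. In HF against ND, Mouse-GAPDH_5 differed by 0.21 log2 units (SE 0.21, limma adjusted p = 0.745) and Mouse-PGK1_5 by 0.23 (SE 0.35, limma adjusted p = 0.849). The 95% interval for Mouse-GAPDH_5 ran from -0.26 to 0.68 and that for Mouse-PGK1_5 from -0.57 to 1.03. Mouse-GAPDH_3 differed by 0.028 and Mouse-PGK1_3 by 0.13, each less than its SE. Without ND replicate 2 the difference turned to -0.10 for Mouse-GAPDH_3, -0.24 for Mouse-PGK1_3 and -0.17 for Mouse-PGK1_5. Mouse-GAPDH_5 differed by 0.030 without ND replicate 2 and by 0.44 without ND replicate 1 (limma adjusted p = 0.492).

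In HE against HF, Mouse-GAPDH_5 differed by -0.30 (SE 0.21, limma adjusted p = 0.538, 95% interval -0.77 to 0.16), the lowest adjusted p of the 12 probe comparisons. It was the 1 comparison of the 12 whose arrays did not overlap, which held for 21.6% of all probes tested in that contrast, 16.3% in HF against ND and 20.5% in HE against ND. The exact two-sided permutation test gave p = 0.1, the smallest that 3 arrays against 3 allow. On slide 2 alone, 2 HE arrays lay 0.40 below 2 HF arrays. The 3′ probe of the same gene differed by -0.10 with overlapping arrays, and the Pgk1 probes by -0.10 (3′) and 0.11 (5′). In HE against ND, the differences were -0.077 and -0.093 for the Gapdh probes and 0.023 and 0.34 for the Pgk1 probes, in the order 3′ and 5′. The interval of the last ran from -0.46 to 1.14, which takes in both no difference and a doubling.

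The scaling of the arrays mattered most in the comparisons with HE. Set to 4 bright spike-in probes in place of the percentile, the median of all probes moved to -0.40 in HE against HF and -0.51 in HE against ND. Under that scaling Mouse-GAPDH_5 differed by -0.70 (limma adjusted p = 0.031) in HE against HF, and in HE against ND Mouse-GAPDH_3 and Mouse-GAPDH_5 differed by -0.56 (limma adjusted p = 0.030) and -0.58 (limma adjusted p = 0.030). This scaling moves every probe of an array alike, so differences relative to the median of all probes are the same under it and under the percentile by construction, at -0.30, -0.059 and -0.076 for these 3. It also gave -0.29 for Mouse-PGK1_5 in HE against HF, -0.46 and -0.15 for Mouse-PGK1_3 and Mouse-PGK1_5 in HE against ND, and -0.061 for Mouse-GAPDH_3 in HF against ND, where relative to the median they were 0.11, 0.041, 0.36 and 0.027. The adjusted limma p over the alternatives for the 12 probe differences was otherwise above 0.05, with 3 of 260 values past it.

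The spread within groups was described next. The SD within groups was 0.25 for Mouse-GAPDH_3, 0.27 for Mouse-GAPDH_5, 0.52 for Mouse-PGK1_3 and 0.51 for Mouse-PGK1_5 (6 degrees of freedom), against a median of 0.22 over the probes tested. The ND arrays carried the Pgk1 values, with SDs of 0.79 for both probes against 0.33 and 0.39 in HF and 0.26 and 0.14 in HE (3′ and 5′, n = 3). The Pgk1 values were at the 91.2 and 91.0 percentile of all tested probes, and at the 96.6 percentile among the 22619 probes whose mean exceeded the scaling percentile. The Gapdh values were at the 59.2 and 64.1 percentile, and at 77.3 and 81.3 among the brighter probes. Within an array the spots of a probe agreed closely, with a median SD over spots of 0.050 and 0.052 for the Gapdh probes (3′ and 5′), 0.081 for Mouse-PGK1_3 and 0.087 for Mouse-PGK1_5.

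A level per gene was taken as the mean of its 2 probes. Gapdh was 6.49, 5.76 and 5.96 in ND, 6.10, 6.43 and 6.04 in HF, and 6.10, 5.90 and 5.95 in HE. Pgk1 was 2.91, 1.33 and 2.06 in ND, 2.23, 2.65 and 1.95 in HF, and 2.36, 2.05 and 2.43 in HE. ND replicate 1 was first and HF replicate 2 second for both genes, and ND replicate 2 was last for both. From lowest to highest array, Gapdh ranged 1.66-fold and Pgk1 2.97-fold.

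The levels of both genes rose and fell together over the arrays. Pearson's r was 0.872 (exact permutation p = 0.00156, n = 9) and Spearman's rho 0.75 (exact permutation p = 0.0255). Without ND replicate 1 and HF replicate 2, the arrays farthest from the median Gapdh level, r was 0.757 (exact permutation p = 0.0510, n = 7), and rho was 0.464 (exact permutation p = 0.302). Removing arrays by their Gapdh level narrows its range. With ND replicate 1 alone left out, r was 0.804 (exact permutation p = 0.0295, n = 8), and with HF replicate 2 alone left out it was 0.863 (exact permutation p = 0.0156, n = 8). Leaving out ND replicates 1 and 2, the highest and lowest arrays, gave r = 0.719 (exact permutation p = 0.0571, n = 7); that pair was chosen after the values were seen. With group means removed r was 0.952 (exact permutation p within groups = 0.00926, n = 9). With slide means removed it was 0.943 over slides 1 and 2 (exact permutation p within slides = 0.00347, n = 8). Within slide 1 it was 0.979 and within slide 2 0.891, each with an exact permutation p of 0.0833 over 4 arrays. All of these are 1 relation recomputed, and both genes share each array, its RNA and its scaling. With no scaling between arrays r was 0.921.

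The array also carried 8 human and rat Gapdh and Pgk1 probes, which are not members but bind mouse RNA to differing degrees. In 10 of the 12 probes, mouse, human and rat, ND replicate 1 was highest and ND replicate 2 lowest. Human-GAPDH_3 followed Mouse-GAPDH_5 with r = 0.993, Rat-GAPDH_5 followed it with 0.968, and Rat-PGK1_5 followed Mouse-PGK1_5 with 0.998. Human-PGK1_3 followed Mouse-PGK1_3 with 0.966. High r was not confined to probes of the same gene. Rat-GAPDH_5 had 0.968 with Mouse-PGK1_3, and Mouse-GAPDH_5 had 0.907 with it. Human-GAPDH_5 had 0.965 with Mouse-PGK1_5, against 0.780 with Mouse-GAPDH_5. These r are over 9 arrays and describe probes on the same arrays. Mouse-GAPDH_3 correlated less with its partner Mouse-GAPDH_5, at 0.845, than Mouse-PGK1_3 did with Mouse-PGK1_5, at 0.927. The exceptions to the order were the other two probes. Rat-GAPDH_3 was well above background on all 9 arrays yet ranged by 0.27 log2 units. Its r was 0.12 with Mouse-GAPDH_3 and -0.11 with Mouse-GAPDH_5. Rat-PGK1_3 was well above background on 0 of 9. Human-PGK1_5, which kept the order, was well above background on 7 of 9.

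The difference between the 2 ends was taken within each array, which removes the scaling. Its size also depends on how well each probe binds, so only changes between arrays were compared. For Gapdh, the 3′ level minus the 5′ level was -1.89, -1.72 and -1.84 in ND, -1.93, -1.95 and -2.12 in HF, and -1.72, -1.68 and -1.99 in HE. Every HF array was below every ND array, by 0.18 on average (exact permutation p = 0.1, n = 3 and 3), and the HE arrays overlapped both. For Pgk1, it was 2.47, 2.47 and 2.26 in ND, 2.17, 2.28 and 2.44 in HF, and 2.10, 1.96 and 2.19 in HE. Every HE array was below every ND array, where the difference was -0.32 (exact permutation p = 0.1, n = 3 and 3). Over the 6 comparisons of ends the lowest Benjamini-Hochberg adjusted p was 0.3, and 3 arrays against 3 cannot go below 0.1 before adjustment. ND and HE share no slide, but HF lies on slides 1 and 2 with each. Within slide 1 the Pgk1 ends differed by -0.23 between HF and ND (n = 1 and 3). Within slide 2 they differed by -0.33 between HE and HF (exact permutation p = 0.333, n = 2 and 2), the smallest p that 2 arrays against 2 allow. The HF arrays themselves stood at 2.17 on slide 1 and at 2.28 and 2.44 on slide 2. Between HE and ND, group and slide cannot be told apart directly, and the link through HF rests on 1 HF array on slide 1. The Gapdh ends differed by -0.11 between HF and ND within slide 1 and by 0.33 between HE and HF within slide 2.

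The human and rat probes gave further readings of the same ends, chosen after the mouse values were known. With the rat 5′ probe in place of the mouse one, the Pgk1 ends differed by -0.34 between HE and ND (exact permutation p = 0.1) and by -0.22 between HE and HF (exact permutation p = 0.1), both without overlap. With the human 3′ probe they differed by -0.23 between HE and ND (exact permutation p = 0.2), with overlap. ND replicate 2 then stood at 1.79 against 1.20 and 1.28 in the other ND arrays. Between HE and HF the difference was -0.031 with that probe (exact permutation p = 0.9), against -0.21 with the mouse pair (exact permutation p = 0.2). The human 3′ and rat 5′ probes together gave -0.036 between HE and HF (exact permutation p = 0.8) and -0.26 between HE and ND (exact permutation p = 0.2). For Gapdh with the human 3′ probe, the HF and ND difference was -0.063 (exact permutation p = 0.2), with overlap, and the HE and HF difference was 0.083 (exact permutation p = 0.1), without overlap. Over these 12 comparisons the lowest adjusted p was 0.343. Arrays of single probes did not overlap for 20.5% of those tested in HE against ND and 21.6% in HE against HF. The differences between ends thus changed in size with the 3′ probe used.

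Probes that followed each gene were sought among the 31871 ordinary probes well above background on all 9 arrays, as a description. At r above 0.9 there were 256 (0.803%) for Gapdh and 586 (1.84%) for Pgk1, with 23 and 34 below -0.9. The median r over all candidates was -0.086 for Gapdh and -0.11 for Pgk1. With the same cut applied to each candidate in turn, the median number of followers was 51 and the 95th percentile 296. Among these counts the Gapdh count was at the 92.7 percentile and the Pgk1 count at the 99.93 percentile. Each gene level was a mean of 2 probes while a candidate was 1 probe, and the spread between arrays was not matched. The percentiles therefore cannot say how unusual the counts of the genes are. The probes on both lists were 41.8% of the Gapdh followers and 18.3% of the Pgk1 followers. Without ND replicates 1 and 2, 34.4% of the Gapdh followers and 46.2% of the Pgk1 followers kept an r above 0.9. With slide means removed, over slides 1 and 2, 256 of 256 and 583 of 586 kept it. More candidates passed the same cut there, 835 for Gapdh and 916 for Pgk1. The followers were chosen on these same arrays, so their keeping it is no separate check.

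The closest follower of Gapdh, A_55_P2062733, had r = 0.991 and levels of 6.78, 6.00 and 6.25 in ND, 6.41, 6.75 and 6.31 in HF, and 6.30, 6.12 and 6.23 in HE. A_66_P136364 followed with 0.991, A_66_P120745 with 0.988, A_55_P1967533 with 0.985 and A_55_P2063316 with 0.984. Their levels repeated the order of Gapdh at its ends, with ND replicate 1 highest and ND replicate 2 lowest. For Pgk1 the closest were A_55_P2061381 (r = 0.995), A_52_P328078 (0.995), A_51_P491227 (0.994), A_55_P1965539 (0.993) and A_30_P01032592 (0.993). A_51_P491227 varied more than Pgk1 did, with 3.32, 0.84 and 1.99 in ND, 2.21, 2.94 and 1.68 in HF, and 2.48, 2.01 and 2.75 in HE. The files name no gene for these 10 probes, and their sequences were not matched to genes. Some of them may therefore read Gapdh or Pgk1 transcripts themselves, which was not tested.

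Some followers of both genes resembled other probes in sequence, a property looked for after the followers were found. Of the 256, 86 (33.6%) shared a run of at least 20 bases with another follower, against 90 (15.4%) of the Pgk1 followers. Over all candidates, 4780 (15.0%) shared such a run with another candidate, a count over a much larger list. Among the 5 closest followers of Gapdh, 3 shared a run with 6 further probes, whose r with Gapdh was 0.932 to 0.975. Among the 5 closest followers of Pgk1, 2 shared a run, of 21 and 37 bases, with 2 further probes, whose r with Pgk1 was 0.951 to 0.963. A pair from each of 2 such followers is shown, with the shared run in capitals. Probes that share a target can bind the same transcripts and are not separate readings.
A_55_P2062733: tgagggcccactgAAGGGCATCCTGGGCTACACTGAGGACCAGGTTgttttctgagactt
A_55_P2175272: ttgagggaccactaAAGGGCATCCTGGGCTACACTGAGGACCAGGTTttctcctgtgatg
A_66_P136364: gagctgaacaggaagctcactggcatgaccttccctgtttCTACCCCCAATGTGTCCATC
A_55_P2157992: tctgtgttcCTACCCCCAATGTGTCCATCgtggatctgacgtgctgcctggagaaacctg
The first pair shared 33 bases, and the second probe of it had r = 0.932 with Gapdh. The second pair shared 20 bases, and A_55_P2157992 had r = 0.959. The follower lists also differed from the candidates in probe series, in shares that were not matched for signal or for spread between arrays. Probes whose names begin with mmu made up 12.5% of the Gapdh followers and 12.1% of the Pgk1 followers, against 30.7% of candidates, and probes named A_30_P made up 1.56% and 3.24% against 16.8%.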

How the data were processed

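Aorta RNA (0.2 µg per sample, per the labels' protocols) was labelled with Cy3 and hybridised to 1-colour Agilent arrays. The deposited scanner files hold spot intensity, background-corrected by Agilent Feature Extraction 10.7.1.1, per the file headers and the submitters' processing notes. The deposited value table holds log2 values that the authors made by a normalization not given in the sources used here; it was an alternative only.

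Outlier spots were left out. Log2 processed signals were averaged per probe, and the 75th percentile of ordinary probes was subtracted per array. Probes well above background on at least 3 of 9 arrays (43943) entered the fit in limma 3.58.1 (R 4.3.3), with Benjamini-Hochberg adjustment over all of them; single values had exact permutation tests. Of 91188 ordinary probes, 13 were dropped for missing values. Data were simulated with the SDs that limma estimated after shrinkage, and without correlation between probes. On these, limma recovered 52% to 59% of 2-fold and 91% to 94% of 4-fold changes. These are shares over probes drawn at random, and the Pgk1 probes had a wider spread than most probes. The probes named were the 4 control probes and, for each gene, the 5 closest in correlation. The glycolysis and marker lists were not analysed here, because no table naming the probes was used. Members and lists were chosen with earlier results of these data known. Alternatives covered background correction, scaling, the authors' table, filters, prior, slide, replicate number and leaving out arrays.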

Additional observations from a re-analysis of the deposited data

How the results depend on the processing

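No call was made for the 4 control probes in the 75th-percentile analysis. Of 260 alternative values of the 12 probe differences, 232 kept their direction and their side of the threshold, 25 reversed and 3 passed it. Spike-in scaling gave the 3, -0.70 for Mouse-GAPDH_5 in HE against HF and -0.56 and -0.58 for Mouse-GAPDH_3 and Mouse-GAPDH_5 in HE against ND. It moves all probes of an array alike, and by that common shift gave reversed signs for Mouse-GAPDH_3 in HF against ND (-0.061), Mouse-PGK1_5 in HE against HF (-0.29) and in HE against ND (-0.15), and Mouse-PGK1_3 in HE against ND (-0.46). Relative to the median of all probes these were 0.027, 0.11, 0.36 and 0.041, the same under both scalings by construction. The spike-in probes stood 3.75 to 3.81 log2 units above the percentile on the HE arrays and 3.19 to 3.46 on the others. The direction of these probes thus depended on the scaling, and which scaling is right was not tested. Slide as a block, and slide 1 alone, gave -0.021 for Mouse-GAPDH_3 in HF against ND; Mouse-PGK1_3 in HE against ND became -0.25 with the slide block and -0.050 with normexp correction. The authors' table turned the Gapdh end difference in HE against ND to -0.031. The number of probes past the threshold was 0 in the percentile analysis. In HF against ND it was 4 with normexp and 25 with the slide block. In HE against HF it was 12 with normexp, 9593 with spike-in scaling, 3 over probes detected on all arrays and 3 with the trended, robust prior. In HE against ND it was 1 with normexp and 19055 with spike-in scaling. The cause was not tested.

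Leaving out 1 array gave, in HF against ND, -0.10 to 0.22 for Mouse-GAPDH_3, 0.030 to 0.44 for Mouse-GAPDH_5, -0.24 to 0.55 for Mouse-PGK1_3 and -0.17 to 0.61 for Mouse-PGK1_5. In HE against HF it gave -0.21 to 0.026 for Mouse-GAPDH_3, -0.37 to -0.20 for Mouse-GAPDH_5, -0.23 to 0.081 for Mouse-PGK1_3 and -0.087 to 0.30 for Mouse-PGK1_5. In HE against ND it gave -0.21 to 0.11, -0.27 to 0.14, -0.34 to 0.44 and -0.062 to 0.72 for the 3′ and 5′ Gapdh and the 3′ and 5′ Pgk1 probes, and -0.042 to 0.11 for the Gapdh ends. Each array but HF replicate 1 turned at least 1 of these directions when left out. The correlation of Gapdh and Pgk1 was 0.804 to 0.942 with 1 array left out, each below 0.05 by exact permutation. It missed the threshold within slide 1 (0.979), within slide 2 (0.891) and without ND replicates 1 and 2 (0.719). Same-numbered arrays correlated by -0.25 to 0.14 after group means were removed, which shows no pairing by number but cannot exclude one. A replicate block left each difference as it was (0.21 for Mouse-GAPDH_5 in HF against ND) and 0 probes past the threshold. With 3 arrays a group, the number of arrays limits the precision.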
